A study of Mus musculus with 36 samples.

Results

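The genes described here are the immediate early genes that neurons switch on after activity. They were taken as the rows of the count table whose symbol was in a list of 37 names and that held at least 10 counts summed over 36 libraries. The rule used no measured change between groups. It yielded 36 genes, out of 78298 gene identifiers in the table and 35500 that reached the same minimum. Ier5 was listed at 0 counts in all 36 libraries and was left out. Of the 36 genes, 7 encode AP-1 and other bZIP factors, 10 encode zinc finger, nuclear receptor and bHLH factors, 5 encode synaptic and secreted effectors, 5 encode growth arrest and stress regulators, and 9 encode kinases, phosphatases and other signalling regulators.

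Calcium entry through synaptic receptors and voltage-gated channels activates kinases that phosphorylate CREB and SRF cofactors at promoters that are already poised, so immediate early genes are transcribed within minutes and without new protein synthesis. Many of their products are transcription factors that start a later wave, among them Fos, Junb and Npas4. Others act directly at synapses or in feedback on the same kinases, such as Arc and the Dusp phosphatases, and in the hippocampus these genes are read as markers of recently active neurons.

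Bulk RNA from the hippocampus of Fmr1 KO, Shank3 KO and wild-type (WT) mice was sequenced after cannabidiol (CBD), a non-intoxicating compound of the cannabis plant, or vehicle. The 6 groups were Fmr1 KO CBD, Fmr1 KO vehicle, Shank3 KO CBD, Shank3 KO vehicle, WT CBD and WT vehicle, with 6 libraries each, 3 from females and 3 from males. Loss of Fmr1, which encodes an RNA-binding protein, underlies fragile X syndrome. Shank3 encodes a scaffold of excitatory synapses. Injections were subcutaneous over 7 days, at 50 mg/kg in females and 5 mg/kg in males, so sex and dose cannot be told apart among CBD mice. All mice, vehicle mice included, were injected. Strain, alleles, age, the cells that lack each gene and the time from last injection to tissue collection were not stated in the labels. Each library was taken as 1 animal because the library codes differ. Shank3 KO libraries had codes beginning with SKO, and no WT library did. Codes of WT libraries began with FMR, as in Fmr1 KO mice, or with CB. Shank3 genotype and code series therefore cannot be told apart, and what the series mean was not stated.

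Total counts per library ran from 11655697, in Shank3 KO vehicle replicate 2, to 33228089. Fmr1 averaged 40.0 and 41.1 CPM (counts scaled to library size) in Fmr1 KO CBD and vehicle libraries, against 68.8 to 73.9 CPM in the other groups. Shank3 averaged 176 and 168 CPM in Shank3 KO CBD and vehicle libraries, against 255 to 279 CPM in the others. Neuronal markers of the dentate gyrus (10 of 10 measured), CA1 (7 of 7) and CA3 (8 of 8) were all measured. Their content varied: the summed level of dentate markers ran from 527 to 1434 CPM, and that of 12 striatal neuron markers, which belong to a neighbouring region, from 257 to 1774 CPM. Fmr1 KO CBD replicate 3, WT CBD replicate 6 and Shank3 KO vehicle replicate 2 lay farthest out on the first 2 principal components. The mean log2 level of dentate markers was 3.75 in Fmr1 KO CBD replicate 3, against a median of 5.86 in its group. In bulk tissue, fewer cells of a type and less RNA per cell cannot be told apart, and this holds for every value below.

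Promoter sequences are shown because CREB and SRF act at promoters of this gene class. RefSeq windows of build GRCm38.p6, reaching from 250 bases before to 50 bases after a start site, were found for 27 of the 36 genes. Egr1, Egr3, Arc, Ier2, Dusp4, Klf10, Sik1, Trib1 and Nptx2 had none. The 250 bases before the start are printed for Fos and 2 genes that followed it between animals (Cyr61 and Dusp1) and for 3 that followed Arc (Nr4a1, Plk2 and Dusp5), as described further on. They lie at chr12:85473640-85473889 (plus strand) for Fos, chr3:145649986-145650235 (minus) for Cyr61, chr17:26508473-26508722 (minus) for Dusp1, chr15:101266596-101266845 (plus) for Nr4a1, chr13:110394794-110395043 (plus) for Plk2 and chr19:53528895-53529144 (plus) for Dusp5. Each is written 5′ to 3′ on the strand of the gene, and capitals mark the cAMP response element (CRE) TGACGTCA, its shorter core TGACG on either strand (CGTCA on the other) and the serum response element (SRE).
Fos: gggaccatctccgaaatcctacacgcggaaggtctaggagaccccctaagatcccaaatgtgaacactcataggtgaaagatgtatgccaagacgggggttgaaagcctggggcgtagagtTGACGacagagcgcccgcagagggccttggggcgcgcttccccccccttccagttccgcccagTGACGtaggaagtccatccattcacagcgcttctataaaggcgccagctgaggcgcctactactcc
Cyr61: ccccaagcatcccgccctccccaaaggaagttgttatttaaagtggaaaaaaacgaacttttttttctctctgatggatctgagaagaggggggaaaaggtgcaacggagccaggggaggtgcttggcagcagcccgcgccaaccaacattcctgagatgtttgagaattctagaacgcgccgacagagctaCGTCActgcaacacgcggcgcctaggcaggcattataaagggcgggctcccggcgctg
Dusp1: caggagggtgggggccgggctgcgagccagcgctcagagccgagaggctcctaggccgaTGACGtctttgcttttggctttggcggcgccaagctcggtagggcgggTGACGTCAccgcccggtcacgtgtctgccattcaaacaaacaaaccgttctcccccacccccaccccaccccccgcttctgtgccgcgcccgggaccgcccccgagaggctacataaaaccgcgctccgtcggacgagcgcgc
Nr4a1: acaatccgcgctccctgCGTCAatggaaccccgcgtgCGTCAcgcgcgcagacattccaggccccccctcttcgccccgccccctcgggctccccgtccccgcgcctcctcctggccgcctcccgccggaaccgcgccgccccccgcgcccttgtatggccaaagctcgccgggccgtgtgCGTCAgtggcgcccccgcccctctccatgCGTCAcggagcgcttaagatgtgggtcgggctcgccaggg
Plk2: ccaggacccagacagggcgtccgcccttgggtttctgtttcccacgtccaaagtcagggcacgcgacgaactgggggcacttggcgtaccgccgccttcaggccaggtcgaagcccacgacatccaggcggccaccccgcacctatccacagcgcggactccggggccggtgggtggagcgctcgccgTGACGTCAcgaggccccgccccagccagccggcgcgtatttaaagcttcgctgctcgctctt
Dusp5: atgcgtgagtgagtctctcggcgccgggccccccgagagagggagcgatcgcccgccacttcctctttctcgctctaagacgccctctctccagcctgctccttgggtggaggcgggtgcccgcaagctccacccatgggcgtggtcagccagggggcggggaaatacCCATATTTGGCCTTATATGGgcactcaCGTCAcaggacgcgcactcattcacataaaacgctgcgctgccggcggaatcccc

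Fos carried cores that begin 129 and 66 bases before the start, and Cyr61 carried one that begins 58 bases before it. Nr4a1 carried 4, the nearest 40 bases before the start. Dusp1 and Plk2 carried the full CRE, at 143 and 62 bases, and Dusp1 another core at 191 bases. Dusp5 carried 2 SREs side by side at 82 and 72 bases and a core at 55 bases. Over the 33 windows of the 27 genes, searched over their whole 300 bases, the core was found in 24 windows (72.7%), against 20.8% of 32851 windows in the table. The full CRE, which holds 2 overlapping cores that are counted with the rest, was in 4 windows (12.1%), those of Btg2, Dusp1, Maff and Plk2, against 1.79%. The SRE, a CArG box, was in 5 windows (15.2%) of Egr2 and Dusp5, against 1.63%. Windows of Egr2 overlap almost fully and hold the same SRE, so 1 site is counted more than once. By gene, 21 of 27 had the core, 4 the full CRE and 2 an SRE. TGANTCA, a pattern broader than the AP-1 site because it takes any base in the middle, was in 0 of the 33 windows, against 7.81%. The shares were not matched for base composition, several windows belong to 1 gene, and a match is a string of letters, not a measured site.

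Levels between genes were compared only as CPM per kilobase of deposited gene length, averaged over the 36 libraries. Plk2, a kinase that scales synapses down, stood highest at 24.6 CPM per kb, beside Arc at 24.4, and these 2 did not differ beyond their spread between libraries. Egr1 followed at 16.9 and Egr3 at 14.0. Atf3 and Inhba were lowest, at 0.0163 and 0.0214 CPM per kb, and their places rest on the length used. Fos stood in place 17 of 36, at 1.55 CPM per kb. Deposited lengths matched the whole gene span, so a gene with long introns or a distant annotated end is set low. They lay within 5% of the span for 98.1% of protein-coding genes with introns, and within 5% of the joined exons for 0.3%. Whether reads in introns entered the counts was not tested. If they did, every CPM holds such reads, and a value per kb of joined exons divides them by exon length alone. The choice of length touches many members. Among them are Atf3, with a deposited length of 47744 bases against 2154 bases of joined exons, and Dusp1, with 56539 against 3311. Per kb of joined exons, an alternative chosen after seeing the data, Atf3 stood in place 34 and Dusp1 in place 15, against places 36 and 32 per kb of deposited length. Nr4a3 went from 2.42 to 16.7 CPM per kb (place 8 to 5), Nfil3 from place 31 to 21 and Fos from place 17 to 22. Plk2, Arc, Egr1 and Egr3 kept places 1, 2, 3 and 4. Whether counting used strand was not stated, and 2 genes on the opposite strand, B230303A05Rik and Gm48444, cover 58.5% and 31.6% of Inhba, so its counts are uncertain. No other member shared 10% or more of its span with another gene. A share of the span reads low for a gene with a long span: Dusp1 shared 3.28% with AC122252.1 on the same strand. Junb shared 8.29% with Prdx2 on the opposite strand. Whether these stretches touch the counts was not tested.

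The spread between animals was wide for these genes. Their biological coefficient of variation, the spread left after counting error, had a median of 24.9% (15.1% for Gadd45b to 40.1% for Egr2), against 19.3% over all 21172 genes tested. None of the 36 genes was at 0 counts in any library. The ratio of the highest to the lowest library was 3.96 for Fos, 4.99 for Arc and 8.37 for Nr4a2. That spread sets how small a group difference could be seen: the median SE of a log2 fold change between 2 groups of 6 was close to 0.218.

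**Figure D1:**
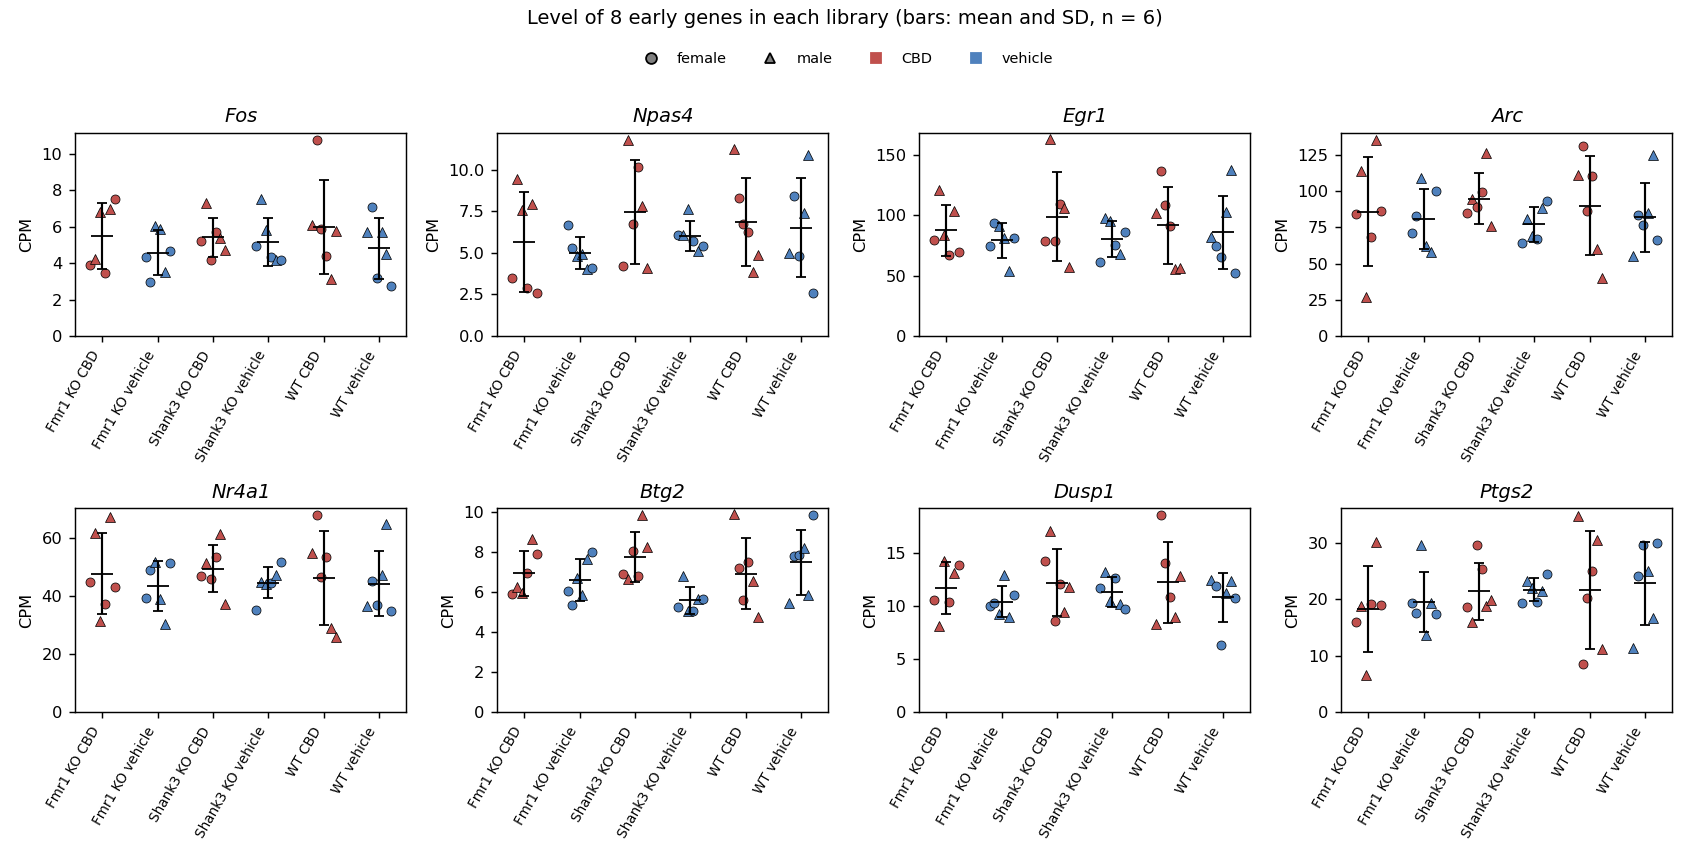
CPM (vertical axis, from 0) of Fos, Npas4, Egr1, Arc, Nr4a1, Btg2, Dusp1 and Ptgs2 in each library, with the CBD group left of the vehicle group of each genotype, circles for females, triangles for males, and bars at the mean and SD of 6 libraries. CBD and vehicle groups overlap in every panel, by 1 vehicle library in the case of Btg2 in Shank3 KO, and Arc runs from 27.1 to 135 CPM within Fmr1 KO CBD alone.

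The first comparison asked what CBD did within each genotype, and it was read gene by gene in the order of the gene products. Among the AP-1 factors, Fos, Fosb and Junb had the higher median with CBD in all 3 genotypes, and none passed the test (edgeR's quasi-likelihood test, Benjamini-Hochberg adjustment over all genes, as everywhere below). Each group held 6 libraries. Fos, which encodes the founding Fos subunit of AP-1, ran from 3.46 to 7.52 CPM (median 5.53) in Fmr1 KO CBD libraries and from 2.97 to 6.06 CPM (median 4.498) in Fmr1 KO vehicle libraries. Fos ran from 4.19 to 7.29 CPM (median 5.300) in Shank3 KO CBD and from 4.19 to 7.51 CPM (median 4.63) in Shank3 KO vehicle libraries. Fos ran from 3.14 to 10.8 CPM (median 5.79) in WT CBD and from 2.72 to 7.100 CPM (median 5.12) in WT vehicle libraries. WT CBD replicate 2 was the highest library, and each CBD group overlapped its vehicle group. Fos had a CBD over vehicle log2 fold change of 0.27 (SE 0.249) in Fmr1 KO, 0.09 (SE 0.249) in Shank3 KO and 0.33 (SE 0.248) in WT mice (adjusted p = 1, 0.978 and 1 in that order). Fosb, which encodes another AP-1 subunit and the long-lived ΔFosB splice form, ran from 3.93 to 7.28 CPM (median 4.82) in Fmr1 KO CBD libraries and from 2.96 to 6.33 CPM (median 4.57) in Fmr1 KO vehicle libraries. Fosb ran from 4.01 to 9.05 CPM (median 5.06) in Shank3 KO CBD and from 2.55 to 6.78 CPM (median 4.86) in Shank3 KO vehicle libraries. Fosb ran from 3.63 to 8.36 CPM (median 5.95) in WT CBD and from 3.74 to 7.19 CPM (median 4.72) in WT vehicle libraries. The 3 pairs of groups overlapped over most of their ranges, with the single highest value in Shank3 KO CBD replicate 2. Fosb had a CBD over vehicle log2 fold change of 0.22 (SE 0.219) in Fmr1 KO, 0.23 (SE 0.219) in Shank3 KO and 0.23 (SE 0.218) in WT mice (adjusted p = 1, 0.963 and 1 in that order). Junb, which encodes a Jun partner in AP-1, ran from 21.7 to 28.97 CPM (median 23.5) in Fmr1 KO CBD libraries and from 15.7 to 32.1 CPM (median 20.8) in Fmr1 KO vehicle libraries. Junb ran from 17.7 to 27.6 CPM (median 23.6) in Shank3 KO CBD and from 12.7 to 26.7 CPM (median 19.1) in Shank3 KO vehicle libraries. Junb ran from 16.2 to 26.3 CPM (median 22.8) in WT CBD and from 15.2 to 26.7 CPM (median 19.6) in WT vehicle libraries. Fmr1 KO CBD replicate 5 stood above the other 5 Fmr1 KO CBD libraries, and the Fmr1 KO vehicle libraries spread over a wider range that enclosed the CBD group. Junb had a CBD over vehicle log2 fold change of 0.19 (SE 0.166) in Fmr1 KO, 0.28 (SE 0.167) in Shank3 KO and 0.04 (SE 0.167) in WT mice (adjusted p = 1, 0.963 and 1 in that order). Its Shank3 KO value was 0.18 without Shank3 KO vehicle replicate 1.

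Fosl2, another Fos family member, had CBD log2 fold changes of 0.33 (SE 0.245) in Fmr1 KO, 0.29 (SE 0.246) in Shank3 KO and -0.13 (SE 0.246) in WT mice. Its highest library was Shank3 KO CBD replicate 6, and its Fmr1 KO value was 0.19 without Fmr1 KO CBD replicate 5 and 0.20 with marker scores as covariates. All 7 AP-1 and bZIP genes, which also include the stress factor Atf3, the small Maf protein Maff and the circadian repressor Nfil3, had higher values with CBD in Fmr1 KO mice (median 0.22). The same 7 had higher values in Shank3 KO mice (median 0.23), and 5 of 7 did in WT mice (median 0.19).

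Among the zinc finger genes, no member of the Egr family passed the test for CBD. Egr1, a zinc finger factor used as a map of recent synaptic activity, ran from 66.8 to 121 CPM (median 81.6) in Fmr1 KO CBD libraries and from 53.6 to 93.6 CPM (median 81.2) in Fmr1 KO vehicle libraries. Egr1 ran from 56.96 to 163 CPM (median 92.4) in Shank3 KO CBD and from 61.4 to 97.9 CPM (median 80.7) in Shank3 KO vehicle libraries. Egr1 ran from 55.3 to 137 CPM (median 96.6) in WT CBD and from 52.3 to 138 CPM (median 78.3) in WT vehicle libraries. Shank3 KO CBD replicate 2 was the highest library, and every CBD group reached both above and below the middle of its vehicle group. Egr1 had a CBD over vehicle log2 fold change of 0.12 (SE 0.229) in Fmr1 KO, 0.29 (SE 0.229) in Shank3 KO and 0.14 (SE 0.229) in WT mice (adjusted p = 1, 0.963 and 1 in that order). Egr2, a zinc finger factor of the same family, ran from 1.42 to 3.98 CPM (median 2.38) in Fmr1 KO CBD libraries and from 0.966 to 4.21 CPM (median 1.48) in Fmr1 KO vehicle libraries. Egr2 ran from 1.41 to 4.99 CPM (median 2.15) in Shank3 KO CBD and from 1.13 to 3.78 CPM (median 2.43) in Shank3 KO vehicle libraries. Egr2 ran from 1.21 to 4.18 CPM (median 2.29) in WT CBD and from 1.199 to 3.61 CPM (median 2.38) in WT vehicle libraries. Fmr1 KO vehicle replicate 3 stood alone at the top of an otherwise low group, and the pairs overlapped. Egr2 had a CBD over vehicle log2 fold change of 0.56 (SE 0.3502) in Fmr1 KO, 0.05 (SE 0.347) in Shank3 KO and 0.09 (SE 0.347) in WT mice (adjusted p = 1, 0.994 and 1 in that order). The Fmr1 KO value was 0.95 without Fmr1 KO vehicle replicate 3. Egr3, an Egr family member linked to memory, ran from 66.02 to 105 CPM (median 74.8) in Fmr1 KO CBD libraries and from 58.9 to 124 CPM (median 67.2) in Fmr1 KO vehicle libraries. Egr3 ran from 58.7 to 104 CPM (median 78.9) in Shank3 KO CBD and from 48.7 to 98.98 CPM (median 64.96) in Shank3 KO vehicle libraries. Egr3 ran from 46.9 to 124 CPM (median 74.8) in WT CBD and from 58.6 to 89.1 CPM (median 78.4) in WT vehicle libraries. The same Fmr1 KO vehicle replicate 3 stood alone above its group, and WT CBD replicate 6 was the lowest library. Egr3 had a CBD over vehicle log2 fold change of 0.05 (SE 0.179) in Fmr1 KO, 0.25 (SE 0.179) in Shank3 KO and 0.05 (SE 0.179) in WT mice (adjusted p = 1, 0.963 and 1 in that order). Egr4, the remaining Egr family member, ran from 3.63 to 8.47 CPM (median 5.45) in Fmr1 KO CBD libraries and from 2.77 to 5.89 CPM (median 4.25) in Fmr1 KO vehicle libraries. Egr4 ran from 3.05 to 6.703 CPM (median 4.98) in Shank3 KO CBD and from 2.78 to 7.51 CPM (median 4.42) in Shank3 KO vehicle libraries. Egr4 ran from 2.47 to 8.32 CPM (median 4.09) in WT CBD and from 2.95 to 6.49 CPM (median 4.33) in WT vehicle libraries. Fmr1 KO CBD libraries reached above the Fmr1 KO vehicle libraries but shared most of their range, and WT CBD replicate 6 was the lowest library. Egr4 had a CBD over vehicle log2 fold change of 0.43 (SE 0.261) in Fmr1 KO, 0.08 (SE 0.262) in Shank3 KO and 0.02 (SE 0.263) in WT mice (adjusted p = 1, 0.98 and 1 in that order).

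No bHLH or nuclear receptor gene passed either. Npas4, a bHLH-PAS factor induced by calcium entry and tied to inhibitory synapses, ran from 2.57 to 9.43 CPM (median 5.55) in Fmr1 KO CBD libraries and from 4.05 to 6.64 CPM (median 4.89) in Fmr1 KO vehicle libraries. Npas4 ran from 4.09 to 11.8 CPM (median 7.29) in Shank3 KO CBD and from 5.08 to 7.65 CPM (median 5.91) in Shank3 KO vehicle libraries. Npas4 ran from 3.82 to 11.2 CPM (median 6.48) in WT CBD and from 2.57 to 10.9 CPM (median 6.19) in WT vehicle libraries. In both KO lines the CBD libraries spread on both sides of a compact vehicle group. Npas4 had a CBD over vehicle log2 fold change of 0.09 (SE 0.305) in Fmr1 KO, 0.31 (SE 0.302) in Shank3 KO and 0.11 (SE 0.302) in WT mice (adjusted p = 1, 0.963 and 1 in that order). Nr4a1, an orphan nuclear receptor, ran from 31.6 to 67.2 CPM (median 44.1) in Fmr1 KO CBD libraries and from 30.5 to 51.7 CPM (median 44.2) in Fmr1 KO vehicle libraries. Nr4a1 ran from 37.3 to 61.3 CPM (median 49.2) in Shank3 KO CBD and from 35.4 to 51.9 CPM (median 44.6) in Shank3 KO vehicle libraries. Nr4a1 ran from 25.96 to 68.1 CPM (median 50.01) in WT CBD and from 34.9 to 64.8 CPM (median 41.03) in WT vehicle libraries. WT CBD held both the highest library, replicate 2, and the lowest, replicate 6. Nr4a1 had a CBD over vehicle log2 fold change of 0.13 (SE 0.199) in Fmr1 KO, 0.15 (SE 0.199) in Shank3 KO and 0.07 (SE 0.199) in WT mice (adjusted p = 1, 0.968 and 1 in that order). Nr4a3, an orphan nuclear receptor of the same family, ran from 53.3 to 145 CPM (median 91.5) in Fmr1 KO CBD libraries and from 67.8 to 151 CPM (median 101) in Fmr1 KO vehicle libraries. Nr4a3 ran from 81.1 to 122 CPM (median 103) in Shank3 KO CBD and from 77.5 to 131 CPM (median 92.9) in Shank3 KO vehicle libraries. Nr4a3 ran from 53.5 to 135 CPM (median 94.1) in WT CBD and from 79.04 to 130 CPM (median 101) in WT vehicle libraries. The CBD median was the lower of the pair in Fmr1 KO and WT mice and the higher in Shank3 KO mice, and all pairs overlapped. Nr4a3 had a CBD over vehicle log2 fold change of -0.07 (SE 0.218) in Fmr1 KO, 0.05 (SE 0.218) in Shank3 KO and -0.11 (SE 0.218) in WT mice (adjusted p = 1, 0.99 and 1 in that order). Klf4, a zinc finger factor of pluripotent and vascular cells, had the smallest p among the members in WT mice. It ran from 1.59 to 3.86 CPM (median 3.21) in WT CBD and from 1.48 to 3.27 CPM (median 2.401) in WT vehicle libraries, with overlap, and its log2 fold change was 0.36 (SE 0.204, adjusted p = 1).

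No effector gene passed the test for CBD. Arc, a cytoskeletal regulator that drives AMPA receptor removal, ran from 27.1 to 135 CPM (median 85.4) in Fmr1 KO CBD libraries and from 58.3 to 109 CPM (median 77.1) in Fmr1 KO vehicle libraries. Arc ran from 75.7 to 126 CPM (median 91.7) in Shank3 KO CBD and from 64.5 to 93.2 CPM (median 74.9) in Shank3 KO vehicle libraries. Arc ran from 40.4 to 131 CPM (median 98.7) in WT CBD and from 55.3 to 125 CPM (median 80.4) in WT vehicle libraries. Fmr1 KO CBD held both the highest library, replicate 5, and the lowest, replicate 3. Arc had a CBD over vehicle log2 fold change of 0.09 (SE 0.261) in Fmr1 KO, 0.30 (SE 0.262) in Shank3 KO and 0.13 (SE 0.262) in WT mice (adjusted p = 1, 0.963 and 1 in that order). Nptx2, a secreted pentraxin that clusters AMPA receptors, ran from 8.94 to 15.6 CPM (median 13.8) in Fmr1 KO CBD libraries and from 9.203 to 15.05 CPM (median 12.1) in Fmr1 KO vehicle libraries. Nptx2 ran from 13.8 to 19.6 CPM (median 15.3) in Shank3 KO CBD and from 10.8 to 16.8 CPM (median 15.3) in Shank3 KO vehicle libraries. Nptx2 ran from 9.53 to 31.1 CPM (median 12.5) in WT CBD and from 11.9 to 21.6 CPM (median 13.1) in WT vehicle libraries. WT CBD replicate 1 stood alone at more than any other library, and the groups overlapped. Nptx2 had a CBD over vehicle log2 fold change of 0.09 (SE 0.188) in Fmr1 KO, 0.15 (SE 0.187) in Shank3 KO and 0.03 (SE 0.187) in WT mice (adjusted p = 1, 0.965 and 1 in that order). Ptgs2, cyclooxygenase 2, which makes prostaglandins, ran from 6.57 to 30.2 CPM (median 18.9) in Fmr1 KO CBD libraries and from 13.7 to 29.6 CPM (median 18.4) in Fmr1 KO vehicle libraries. Ptgs2 ran from 16.03 to 29.6 CPM (median 19.4) in Shank3 KO CBD and from 19.4 to 24.5 CPM (median 21.8) in Shank3 KO vehicle libraries. Ptgs2 ran from 8.49 to 34.7 CPM (median 22.7) in WT CBD and from 11.4 to 29.98 CPM (median 24.6) in WT vehicle libraries. WT CBD and Fmr1 KO CBD each spanned a wide range that held the whole of its vehicle group. Ptgs2 had a CBD over vehicle log2 fold change of -0.10 (SE 0.285) in Fmr1 KO, -0.02 (SE 0.284) in Shank3 KO and -0.07 (SE 0.284) in WT mice (adjusted p = 1, 0.998 and 1 in that order).

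The growth arrest and stress regulators held the 2 smallest p-values among the members in Shank3 KO mice, and none passed after adjustment. Btg2, an anti-proliferative cofactor, ran from 5.91 to 8.66 CPM (median 6.61) in Fmr1 KO CBD libraries and from 5.33 to 7.995 CPM (median 6.35) in Fmr1 KO vehicle libraries. Btg2 ran from 6.63 to 9.83 CPM (median 7.48) in Shank3 KO CBD and from 5.05 to 6.805 CPM (median 5.45) in Shank3 KO vehicle libraries. Btg2 ran from 4.76 to 9.91 CPM (median 6.88) in WT CBD and from 5.44 to 9.84 CPM (median 7.81) in WT vehicle libraries. Shank3 KO vehicle libraries were low, and among them only replicate 2 reached the range of Shank3 KO CBD libraries. Btg2 had a CBD over vehicle log2 fold change of 0.08 (SE 0.153) in Fmr1 KO, 0.48 (SE 0.154) in Shank3 KO and -0.12 (SE 0.153) in WT mice (adjusted p = 1, 0.963 and 1 in that order). Ier2, a short nuclear protein of the early response, ran from 1.28 to 2.74 CPM (median 2.09) in Fmr1 KO CBD libraries and from 1.34 to 2.67 CPM (median 2.04) in Fmr1 KO vehicle libraries. Ier2 ran from 1.73 to 2.62 CPM (median 2.27) in Shank3 KO CBD and from 0.972 to 2.06 CPM (median 1.74) in Shank3 KO vehicle libraries. Ier2 ran from 1.33 to 2.99 CPM (median 1.91) in WT CBD and from 1.35 to 2.12 CPM (median 1.55) in WT vehicle libraries. Shank3 KO CBD libraries lay mostly above Shank3 KO vehicle libraries, with overlap, and the other pairs overlapped more widely. Ier2 had a CBD over vehicle log2 fold change of -0.02 (SE 0.199) in Fmr1 KO, 0.46 (SE 0.201) in Shank3 KO and 0.30 (SE 0.202) in WT mice (adjusted p = 1, 0.963 and 1 in that order). Gadd45b, a stress sensor that takes part in DNA demethylation in neurons, ran from 3.45 to 4.43 CPM (median 4.07) in Fmr1 KO CBD libraries and from 2.92 to 4.399 CPM (median 3.45) in Fmr1 KO vehicle libraries. Gadd45b ran from 3.12 to 4.45 CPM (median 3.64) in Shank3 KO CBD and from 3.12 to 4.34 CPM (median 4.13) in Shank3 KO vehicle libraries. Gadd45b ran from 2.55 to 4.64 CPM (median 3.63) in WT CBD and from 2.900 to 4.97 CPM (median 4.21) in WT vehicle libraries. Fmr1 KO CBD had the higher median of its pair, and the Shank3 KO and WT CBD groups had the lower one of theirs. Gadd45b had a CBD over vehicle log2 fold change of 0.16 (SE 0.142) in Fmr1 KO, -0.10 (SE 0.143) in Shank3 KO and -0.21 (SE 0.143) in WT mice (adjusted p = 1, 0.97 and 1 in that order).

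In Shank3 KO mice, Btg2 averaged 7.75 ± 1.23 CPM with CBD and 5.57 ± 0.6599 CPM with vehicle (SD, n = 6 each), and its 95% interval 0.17 to 0.80 lay above 0. Btg2, Ier2 and Dusp4 were the 3 members with an unadjusted p under 0.05 in that comparison, and none passed after adjustment over all genes. The dentate marker level was also lower in Shank3 KO vehicle libraries, with a mean log2 level of 5.15 to 5.59, against 5.39 to 6.41 in Shank3 KO CBD and 5.52 to 6.08 in WT vehicle libraries. With scores of 4 marker lists (striatal neuron, dentate granule neuron, choroid plexus and endothelium) as covariates, the log2 fold change of Btg2 was 0.31 (adjusted p = 0.722).

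Among the signalling regulators, no gene passed the test for CBD. Dusp1, a phosphatase that inactivates MAP kinases, ran from 8.12 to 14.2 CPM (median 11.8) in Fmr1 KO CBD libraries and from 8.96 to 12.98 CPM (median 10.1) in Fmr1 KO vehicle libraries. Dusp1 ran from 8.58 to 17.1 CPM (median 11.9) in Shank3 KO CBD and from 9.72 to 13.3 CPM (median 11.1) in Shank3 KO vehicle libraries. Dusp1 ran from 8.28 to 18.6 CPM (median 11.8) in WT CBD and from 6.31 to 12.4 CPM (median 11.6) in WT vehicle libraries. The vehicle groups were compact apart from WT vehicle replicate 3, and CBD groups extended above them. Dusp1 had a CBD over vehicle log2 fold change of 0.17 (SE 0.181) in Fmr1 KO, 0.11 (SE 0.181) in Shank3 KO and 0.18 (SE 0.181) in WT mice (adjusted p = 1, 0.971 and 1 in that order). Dusp4, a nuclear phosphatase of the same class, ran from 12.6 to 36.3 CPM (median 23.1) in Shank3 KO CBD and from 13.2 to 21.2 CPM (median 17.4) in Shank3 KO vehicle libraries. These groups overlapped, with the CBD libraries reaching both lower and higher. Its log2 fold change was 0.44 (SE 0.208, adjusted p = 0.963) in Shank3 KO mice, against -0.03 (SE 0.207) in Fmr1 KO and -0.03 (SE 0.207) in WT mice. The Shank3 KO value was 0.25 without Shank3 KO CBD replicate 5, and with marker scores as covariates it turned to -0.06 (adjusted p = 0.994). Dusp6, which acts on ERK in the cytoplasm, had -0.03 (SE 0.164), -0.05 (SE 0.164) and -0.23 (SE 0.164) in Fmr1 KO, Shank3 KO and WT mice. Sik1, a kinase that restrains CREB coactivators, had 0.26 (SE 0.177), 0.14 (SE 0.176) and 0.20 (SE 0.176) in the same order.

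Across the list, 0 of 36 early genes passed an adjusted p under 0.05 for CBD against vehicle in Fmr1 KO, Shank3 KO or WT mice, against 0% of the 21172 genes tested in each. At an unadjusted p under 0.05, edgeR gave 0 members in Fmr1 KO (2.64% of all genes), 3 in Shank3 KO (4.41%) and 0 in WT mice (2.68%). No member had CBD and vehicle groups that did not overlap, against 0.052% of genes in Fmr1 KO, 0.241% in Shank3 KO and 0.052% in WT mice. DESeq2 and limma voom called 0 members as well. The point estimates leaned upward: 30 of 36 were above 0 in Fmr1 KO mice (51.7% of all genes), 33 in Shank3 KO (50% of all genes) and 24 in WT (52.6%). The median log2 fold change of the members was 0.09, 0.15 and 0.06 in these genotypes, against 0.01, 0.000164 and 0.01 over all genes. The Fmr1 KO median was 0.06 without Fmr1 KO CBD replicate 5 and 0.16 without Fmr1 KO CBD replicate 4. In WT mice the median ran from 0.00409 without WT vehicle replicate 1 to 0.13 without WT CBD replicate 5, and it turned to -0.04 under limma voom and to -0.02 with marker scores as covariates. Levels of many members are correlated between animals, as described further on, so 36 estimates in 1 direction are not 36 separate observations. The 95% interval lay within a log2 change of 1 in either direction for 35, 34 and 35 of the 36 genes.

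**Figure D2:**
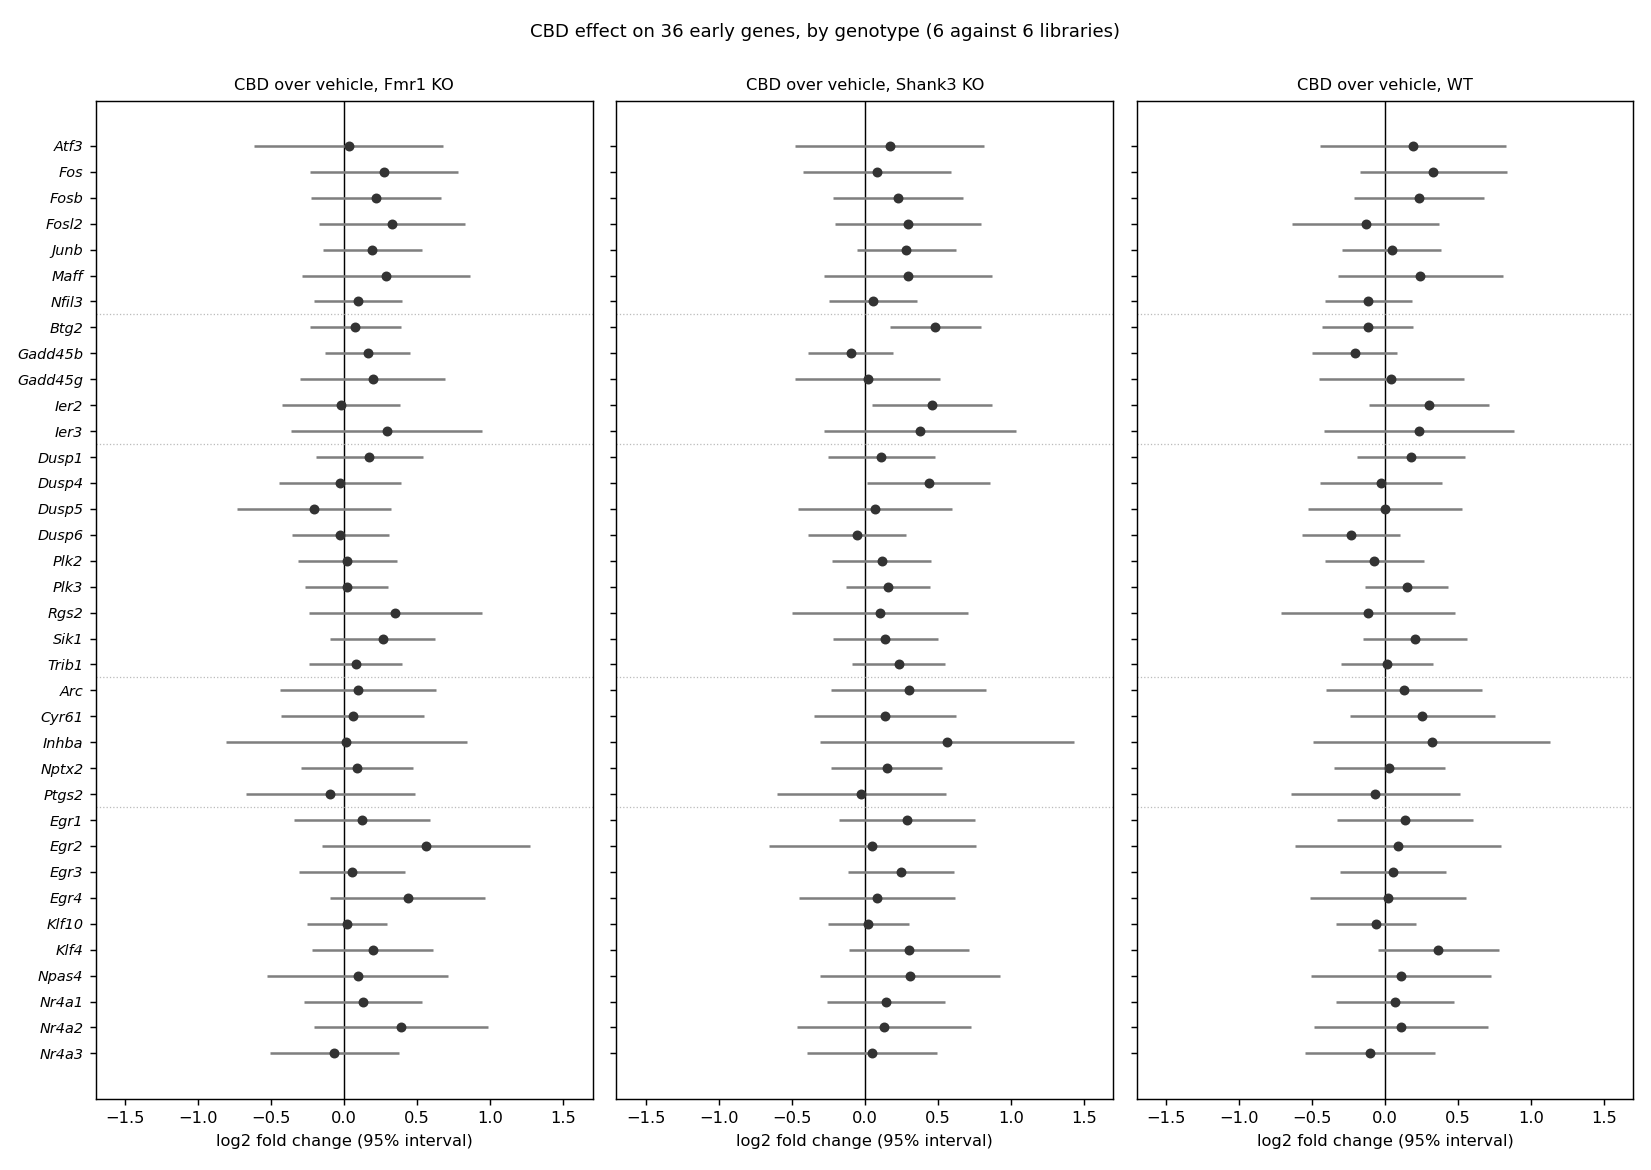
Log2 fold change of CBD over vehicle (points) with its 95% interval (lines) for the 36 early genes in Fmr1 KO, Shank3 KO and WT mice. Dotted lines part the classes, from the top AP-1 and bZIP factors, growth arrest and stress regulators, signalling regulators, effectors and the other transcription factors; most points lie a little right of 0, and in Fmr1 KO and WT mice every interval includes 0.

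Averaged over the 3 genotypes, with 18 CBD and 18 vehicle libraries, the CBD effect again left 0 of 36 members past the threshold, against 0.0189% of all genes. A total of 2 members had an unadjusted p under 0.05 (3.16% of all genes). Klf4 averaged 3.05 ± 0.815 CPM with CBD and 2.49 ± 0.505 CPM with vehicle (SD, n = 18 each), a log2 fold change of 0.29 (SE 0.117, adjusted p = 1). Ier2 averaged 2.08 ± 0.4601 CPM with CBD and 1.75 ± 0.452 CPM with vehicle, a change of 0.25 (SE 0.116, adjusted p = 1). Sik1 and Junb came next, at 0.20 (SE 0.102, adjusted p = 1) and 0.17 (SE 0.0962, adjusted p = 1). The median over the members was 0.15 (0.08 under limma voom), with 30 of 36 above 0 (54.3% of all genes). Egr2, Egr4, Sik1 and Fosl2 had the smallest p in Fmr1 KO mice, at 0.56 (SE 0.3502, adjusted p = 1) for Egr2 and 0.43 (SE 0.261, adjusted p = 1) for Egr4. Gadd45b and Dusp6 followed Klf4 and Ier2 in WT mice, both lower with CBD, at -0.21 (SE 0.143, adjusted p = 1) and -0.23 (SE 0.164, adjusted p = 1).

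Neighbouring genes of the same pathway were counted as whole lists. Of 23 measured genes on a list of late-response genes, such as Bdnf and Vgf, 0 were called in any of the 3 genotypes. The median was 0.01 in Fmr1 KO, -0.04 in Shank3 KO and 0.07 in WT mice. Cdkn1a (0.40, adjusted p = 1) and Vgf (0.30, adjusted p = 1) had the smallest p in Fmr1 KO, Acan (0.38, adjusted p = 0.963) and Baz1a (-0.54, adjusted p = 0.963) in Shank3 KO, and Baz1a (0.71, adjusted p = 1) and Mapk4 (0.26, adjusted p = 1) in WT mice. Of 34 upstream calcium, CREB, SRF and MEF2 pathway genes, 0 were called, with 20, 28 and 15 above 0 in Fmr1 KO, Shank3 KO and WT mice. Mapk3 (0.33) and Mef2d (0.08) had the smallest p in Fmr1 KO, Mef2d (0.29, adjusted p = 0.963) and Camk4 (-0.45) in Shank3 KO, and Camk4 (0.43) and Nfatc3 (0.10) in WT mice. Of 13 other AP-1 and related factors, 0 were called. Fosl1 (0.89, adjusted p = 1) and Klf2 (0.29) led in Fmr1 KO, Jdp2 (0.37) and Ier5l (0.42) in Shank3 KO, and Klf2 (0.43) and Batf3 (0.54) in WT mice.

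Glucocorticoid-responsive genes were listed because injection and handling raise the stress hormones that reach the hippocampus. In each single genotype 0 of 20 were called, against 0% of all genes. Lcn2 had the smallest p, with log2 fold changes of 3.19 in Fmr1 KO, 2.59 in Shank3 KO and 2.46 in WT mice. Values above 0 numbered 13, 16 and 19 in Fmr1 KO, Shank3 KO and WT mice (51.7%, 50% and 52.6% of all genes). The medians were 0.09, 0.21 and 0.14 in the same order. Averaged over the genotypes, 1 of 20 was called, against 0.0189% of all genes. This was Lcn2, which encodes an iron-binding secreted protein, higher by 2.74 on the log2 scale (edgeR adjusted p = 3.37e-05). The call depended on the fit: 0 genes of the whole table were called for the mean effect without the sex term, with the replicate block, or with a minimum of 10 counts in 30 libraries. Fkbp5, a chaperone induced by glucocorticoids, had 0.20 (adjusted p = 1) for the mean effect. Lcn2 also had large values without CBD. Under vehicle it had 2.71 in females minus males (edgeR adjusted p = 0.844). There, 19 of the 20 genes were above 0 (49.8% of all genes). In Fmr1 KO against WT mice under vehicle it had -1.60. The CBD effect on Lcn2 by sex was 2.83 in females (edgeR adjusted p = 0.00376) and 2.97 in males (adjusted p = 0.709). For the late genes the mean effect left Cdkn1a (0.28) and Tiparp (-0.09) with the smallest p, for the upstream list Mef2d (0.14) and Ppp3cb (-0.08), and for the AP-1 list Klf2 (0.34) and Batf3 (0.42), all with adjusted p = 1.

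The second comparison asked whether loss of Fmr1 or Shank3 altered early gene levels, under vehicle first. The WT vehicle libraries are shared by both KO comparisons and by the CBD effect in WT mice, so these results are not independent. Shank3 KO and WT libraries also differed in code series, here and in each later comparison between them. Genotype and code series cannot be told apart there. In Fmr1 KO vehicle mice, 29 of the 36 early genes had lower point estimates than in WT vehicle mice, and 7 higher (50.5% of all genes; median -0.09, against 0.0014 over all genes), and 0 passed, against 0.0283% of all genes. Leaving out 1 library moved the median to -0.15 (Fmr1 KO vehicle replicate 3) or to -0.05 (replicate 5 of the same group). No member reached an unadjusted p under 0.05 (2.24% of all genes), and none had groups that did not overlap (0.128%). Ier2 averaged 2.03 ± 0.553 CPM in Fmr1 KO and 1.62 ± 0.293 CPM in WT vehicle libraries, a log2 fold change of 0.32 (SE 0.202, adjusted p = 1). Gadd45b averaged 3.56 ± 0.539 CPM in Fmr1 KO and 4.11 ± 0.874 CPM in WT vehicle libraries, a change of -0.22 (SE 0.142, adjusted p = 1). Nptx2 and Egr2 had -0.26 (SE 0.188, adjusted p = 1) and -0.45 (SE 0.352, adjusted p = 1). Nptx2 was at -0.15 without WT vehicle replicate 4, and Egr2 ran from -0.83 without Fmr1 KO vehicle replicate 3 to -0.22 without WT vehicle replicate 2. Fos stood at -0.08 (SE 0.2501), Arc at -0.03 (SE 0.262), Egr1 at -0.09 (SE 0.229) and Npas4 at -0.34 (SE 0.304), each with a 95% interval that included 0.

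In Shank3 KO vehicle mice, 25 of 36 had lower point estimates and 11 higher (49.9% of all genes; median -0.07, against -0.000501 over all genes) and 0 passed, against 0.0378% of all genes. The median was -0.02 without WT vehicle replicate 2. Btg2 was the only member with an unadjusted p under 0.05 (5.63% of all genes). It averaged 5.57 ± 0.6599 CPM in Shank3 KO and 7.49 ± 1.62 CPM in WT vehicle libraries (SD, n = 6 each), a log2 fold change of -0.44 (SE 0.154, adjusted p = 0.853). The Shank3 KO libraries, 5.05 to 6.80 CPM, lay inside or below the WT range of 5.44 to 9.84 CPM, so the groups overlapped. Groups were apart for 0 members, against 0.279% of all genes. Dusp4 averaged 17.4 ± 2.82 CPM in Shank3 KO and 23.4 ± 4.04 CPM in WT vehicle libraries, a change of -0.42 (SE 0.208, adjusted p = 0.853), which turned to 0.06 with marker scores as covariates. Trib1, a pseudokinase, and Cyr61, a secreted matrix protein, followed at -0.25 (SE 0.156, adjusted p = 0.853) and 0.37 (SE 0.244, adjusted p = 0.857). Striatal markers moved with these libraries: their mean log2 level reached 5.48 in Shank3 KO vehicle replicate 2 and had a median of 3.06 in that group, against 2.05 in WT vehicle libraries. Whether they bear on Btg2 or Dusp4 beyond the covariate fit was not tested.

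**Figure D3:**
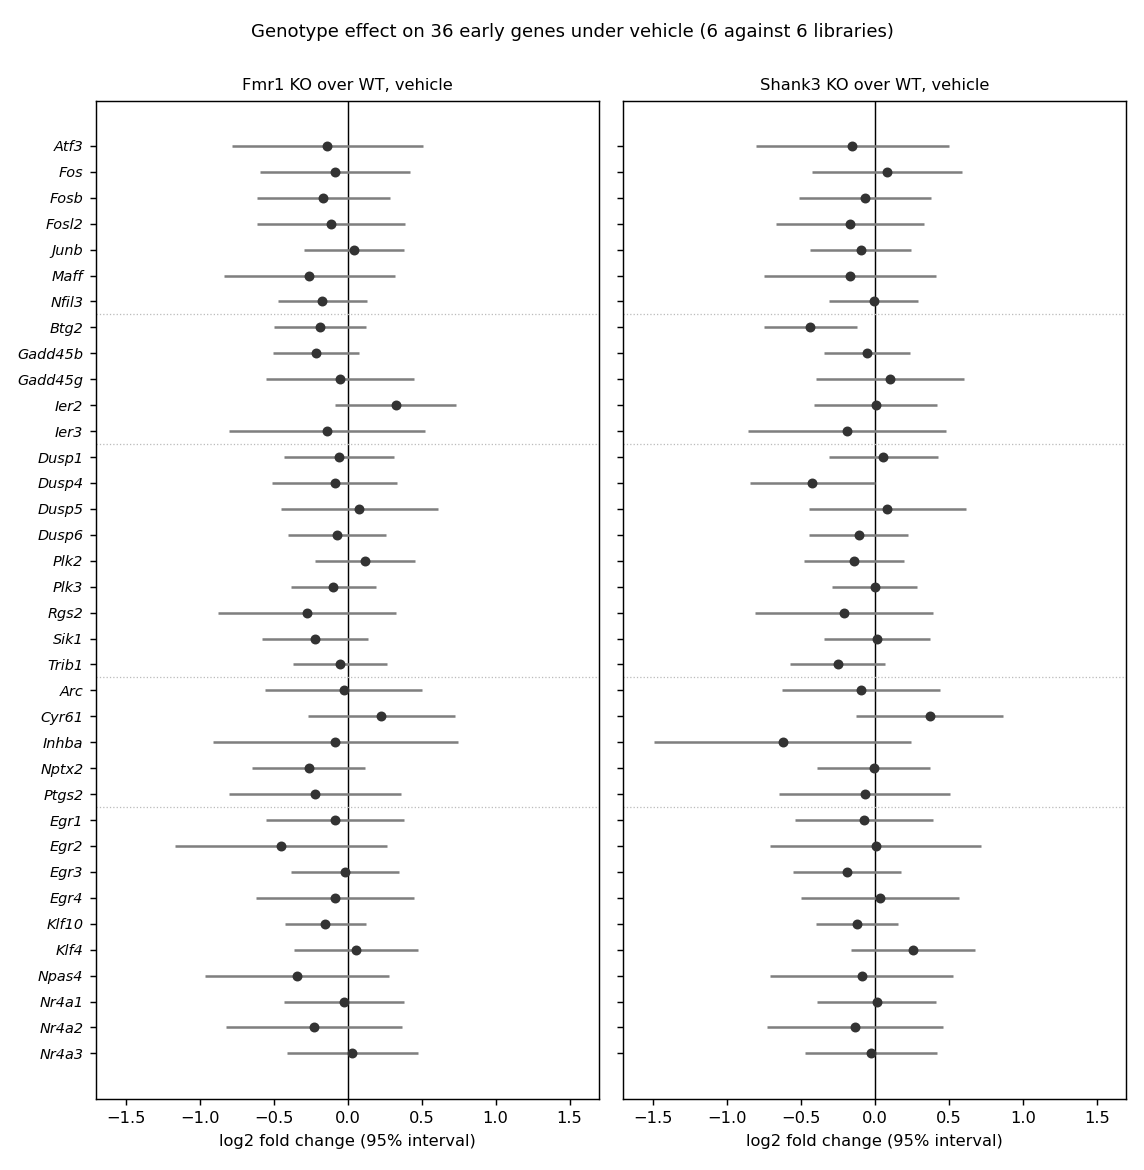
Log2 fold change over WT under vehicle (points) with its 95% interval (lines) for the 36 early genes, Fmr1 KO on the left and Shank3 KO on the right, in the same gene order as the plot of CBD effects. In Shank3 KO mice the interval of Btg2, from -0.75 to -0.12, excludes 0, and that of Dusp4 ends at -0.000143.

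Under CBD, both KO lines were set against 1 shared group of 6 WT libraries. In Fmr1 KO mice 17 of 36 members were above 0 (50.1% of all genes) with a median of -0.04, and in Shank3 KO mice 23 of 36 (47.7%) with a median of 0.05. The Fmr1 KO median ran from -0.13 without WT CBD replicate 6 to 0.03 without WT CBD replicate 2, and the Shank3 KO median from -0.01 without WT CBD replicate 5 to 0.13 without WT CBD replicate 1. In both, 0 members passed, against 0.0331% of all genes for Fmr1 KO and 0.0425% for Shank3 KO. At an unadjusted p under 0.05 there were 0 members in either line (7.4% and 1.65% of all genes), and 0 had groups apart (0.184% and 0.0897%). Plk3, a stress-responsive kinase, had the smallest p in Fmr1 KO mice. It ran from 4.47 to 5.96 CPM (median 4.77) in Fmr1 KO CBD and from 4.06 to 7.77 CPM (median 5.83) in WT CBD libraries, at -0.23 (SE 0.1403, adjusted p = 0.742). Fosl2, Plk2 and Egr4 followed in Fmr1 KO mice at 0.35 (SE 0.245), 0.21 (SE 0.166) and 0.33 (SE 0.261). Nfil3 at 0.16 (SE 0.147), Btg2 at 0.16 (SE 0.152), Cyr61 at 0.26 (SE 0.239) and Fosl2 at 0.26 (SE 0.246) had the smallest p in Shank3 KO mice. These values moved with single libraries: Plk3 was at -0.13 without WT CBD replicate 2, Plk2 at 0.09 and Egr4 at 0.18 without WT CBD replicate 6, Btg2 at 0.08 without Shank3 KO CBD replicate 5, Cyr61 at 0.10 without WT CBD replicate 5, and Fosl2 in Shank3 KO mice at 0.00309 without Shank3 KO CBD replicate 6.

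The third comparison asked whether CBD acted differently in a KO line than in WT mice. The difference of the CBD effect, Fmr1 KO minus WT, left 0 members past the threshold (0% of all genes), with 21 of 36 above 0 (48.9%) and a median of 0.05. That median was 0.12 without WT CBD replicate 1, -0.04 without Fmr1 KO CBD replicate 5, -0.01 without WT CBD replicate 6 and -0.00463 without WT CBD replicate 5. Gadd45b had the smallest p, at 0.37 (SE 0.201, adjusted p = 0.993), with Fosl2, Ier2 and Rgs2 next at 0.46 (SE 0.347), -0.32 (SE 0.283) and 0.46 (SE 0.413). Rgs2 was at 0.18 without Fmr1 KO CBD replicate 3 and Ier2 at -0.16 without WT CBD replicate 1. For Shank3 KO minus WT, 0 members passed (0% of all genes), with 27 of 36 above 0 (48.9%) and a median of 0.12. That median was 0.06 without WT CBD replicate 6, 0.05 without the 3 libraries farthest out on principal components and 0.24 under limma voom. Btg2 had a difference of 0.60 (SE 0.217, adjusted p = 0.912), since its CBD effect was 0.48 in Shank3 KO and -0.12 in WT mice. The low Shank3 KO vehicle libraries enter this difference, the CBD effect in Shank3 KO mice and the genotype comparison under vehicle, so the 3 values for Btg2 share their source. Dusp4, Fosl2 and Junb followed at 0.47 (SE 0.293), 0.43 (SE 0.348) and 0.24 (SE 0.236). The difference for Dusp4 was 0.28 without Shank3 KO CBD replicate 5 and turned to -0.28 with marker scores as covariates, and that for Fosl2 was 0.17 without Shank3 KO CBD replicate 6. At an unadjusted p under 0.05 there were 0 members for Fmr1 KO minus WT (3% of all genes) and 1 for Shank3 KO minus WT (4.74%).

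Sex was examined with means over the 3 genotypes. Under vehicle, female minus male values left 0 members past the threshold (0.0331% of all genes), with 19 of 36 above 0 (49.8%), a median of 0.01 and 0 under an unadjusted p of 0.05 (2.74%). The sign of this median was not stable: it was -0.06 with marker scores as covariates and, among single libraries left out, reached -0.02 without Shank3 KO vehicle replicate 4. Egr2 averaged 1.83 ± 0.767 CPM in females and 2.63 ± 1.17 CPM in males (SD, n = 9 each), at -0.52 (SE 0.288, adjusted p = 1), which was -0.16 without Fmr1 KO vehicle replicate 3. Junb, Egr1 and Fos had 0.23 (SE 0.1304), -0.28 (SE 0.163) and -0.34 (SE 0.207). CBD effects were then fitted per sex, in females at the higher dose and in males at the lower, and 0 members passed in either (0.0142% of all genes in females, 0% in males). Ier3, an early gene that guards against apoptosis, ran from 1.05 to 1.95 CPM (median 1.703) in CBD females and from 0.549 to 1.83 CPM (median 1.08) in vehicle females. The CBD females lay mostly above the vehicle females, with overlap. Ier3 had a female CBD effect of 0.68 (SE 0.241, adjusted p = 0.984) and was the 1 member under an unadjusted p of 0.05 (3.07% of all genes). Fos, Dusp1 and Egr1 came next in females at 0.39 (SE 0.206), 0.26 (SE 0.145) and 0.29 (SE 0.162), and Fos was at 0.24 without WT CBD replicate 2.

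In males, Klf4 ran from 1.59 to 4.74 CPM (median 3.400) with CBD and from 1.48 to 3.47 CPM (median 2.27) with vehicle, a log2 fold change of 0.45 (SE 0.167, adjusted p = 0.709). The ranges overlapped, and Klf4 was the 1 member under an unadjusted p of 0.05 (6.97% of all genes). Junb, Sik1 and Egr4 followed in males at 0.27 (SE 0.1304), 0.29 (SE 0.153) and 0.37 (SE 0.206), and Egr4 was at 0.12 without WT CBD replicate 1. With marker scores as covariates Klf4 was at 0.16. The point estimates were above 0 for 25 of 36 members in females (49.6% of all genes) and for 32 in males (52.2%), with medians of 0.11 in both. The female median was 0.07 under limma voom. The male median ran from 0.05 without WT CBD replicate 1 to 0.19 without Fmr1 KO vehicle replicate 3, and was 0.07 with marker scores as covariates. The difference of the effect, females minus males, left 0 members past the threshold (0% of all genes), with 13 of 36 above 0 (49.3%) and a median of -0.08, which was -0.15 without Fmr1 KO vehicle replicate 3 and turned to 0.02 without Fmr1 KO CBD replicate 5 and to 0.03 with marker scores as covariates. Ier3 had 0.74 (SE 0.348, adjusted p = 0.659), the 1 member under an unadjusted p of 0.05 (7.4% of all genes), followed by Atf3, Nr4a3 and Fosl2 at 0.51 (SE 0.338), -0.39 (SE 0.255) and -0.41 (SE 0.287). Ier3 had 9 counts in its lowest library.

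The genes were next compared with each other between animals of the same genotype, treatment and sex, on log2(CPM + 0.5) centred on the mean of each such cell of 3 libraries. The member list did not use these values. Points share library depth and tissue content. With Fos, 4 of 35 other members passed a Benjamini-Hochberg adjusted permutation p under 0.05 (100000 permutations within cells, two-sided, n = 36, adjusted over the 35). Cyr61 was closest to Fos, with Pearson r = 0.77 (p = 2e-05, adjusted p = 0.0007) and Spearman rho = 0.74 (p = 3e-05). Dusp1 had r = 0.65 (permutation p = 0.00169, adjusted p = 0.0275; rho = 0.64, p = 0.00204), Plk3 r = 0.58 (permutation p = 0.00248, adjusted p = 0.0275; rho = 0.57, p = 0.00471) and Fosb r = 0.53 (permutation p = 0.00314, adjusted p = 0.0275; rho = 0.54, p = 0.00434). Among 21171 genes ranked by r with Fos, Cyr61, Dusp1, Plk3 and Fosb stood in places 1, 25, 88 and 219. The permutation test was not run over all genes. Trib1 (r = 0.53), Sik1 (0.48), Egr2 (0.44) and Npas4 (0.42) came next among the members and did not pass. Without WT CBD replicate 2 and WT vehicle replicate 6, the 2 libraries farthest from the median of Fos, r was 0.80 for Cyr61, 0.70 for Dusp1 and 0.61 for Plk3, which passed again. Fosb no longer did (r of Fosb with Fos 0.51, adjusted permutation p = 0.0533), while Sik1 (0.65) and Trib1 (0.61) now passed.

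Fos and Arc, both textbook activity markers, had r = 0.08 (permutation p = 0.687; rho = 0.18). That r was 0.34 without Fmr1 KO CBD replicate 3 and WT CBD replicate 6, the 2 farthest on Arc, and -0.0009 without the 2 farthest on Fos. At the other end of the order, Dusp4 (r = -0.33), Ptgs2 (-0.31), Nr4a3 (-0.30) and Maff (-0.29) were lowest with Fos and did not pass. Within the 18 vehicle libraries 0 members passed with Fos, at r = 0.48 for Cyr61, 0.51 for Dusp1, 0.34 for Plk3 and 0.60 for Fosb. Within the 18 CBD libraries 4 members passed.

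Arc was taken as a second anchor after its correlation with Fos had been seen, and 8 of 35 members passed with it. Nr4a1 followed Arc most closely, with r = 0.93 (permutation p = 1e-05, the smallest these permutations can give; adjusted p = 0.00035) and rho = 0.92. Dusp6 had r = 0.88 (adjusted permutation p = 0.00035; rho = 0.85), Dusp5 r = 0.80 (adjusted permutation p = 0.0122; rho = 0.62) and Plk2 r = 0.78 (adjusted permutation p = 0.00082; rho = 0.75). The other 4 were Dusp4 at 0.72, Egr1 at 0.57, Junb at 0.53 and Egr4 at 0.51. Among 21171 genes ranked by r with Arc, Nr4a1, Dusp6, Dusp5 and Plk2 stood in places 1, 5, 49 and 74. Dusp4, Egr1, Junb and Egr4 stood in places 203, 1000, 1407 and 1553. An r with Arc of the size of these last 4 was thus not particular to the early genes. The permutation test was not run over all genes. Without Fmr1 KO CBD replicate 3 and WT CBD replicate 6, where Arc was 27.1 and 40.4 CPM, r was 0.94 for Nr4a1, 0.79 for Dusp6, 0.77 for Plk2 and 0.49 for Dusp5, and 4 members passed. Over all 630 pairs of members the median r was 0.16, with 98 pairs above 0.5 and 6 below -0.5. Dusp1 and Dusp4 were the most opposed pair (r = -0.69). Pairs of other genes were not counted, so whether 98 is many for genes that share these libraries was not tested.

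**Figure D4:**
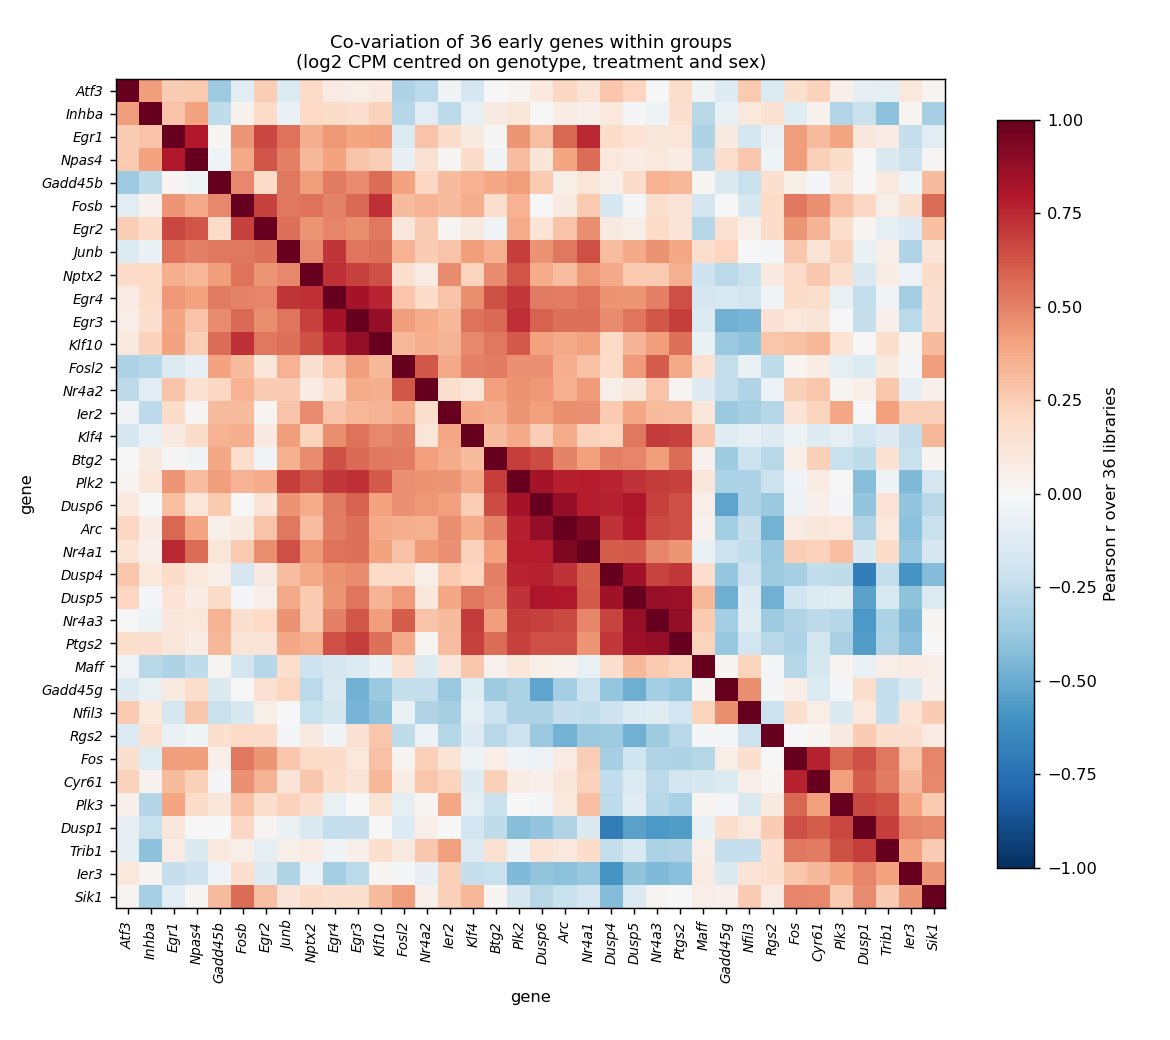
Pearson r between each pair of the 36 early genes over 36 libraries, on log2(CPM + 0.5) centred within genotype, treatment and sex (red above 0, blue below), with genes ordered by average-linkage clustering. The block from Plk2 to Ptgs2 that holds Arc and Nr4a1 (r = 0.93) is red, and a smaller block from Fos to Sik1, holding Cyr61 and Dusp1 (0.77 and 0.65 with Fos), is also red, and Dusp1 is blue against most of the first block.

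Marker levels moved with these relations. In 112 relations of 7 early genes with 16 marker scores, a family chosen after the values were seen and adjusted together, 13 passed. Here the 2 libraries left out were those farthest from the median of the marker score. Arc followed the CA1 neuron score (r = 0.86, adjusted permutation p = 0.00448; rho = 0.79; r = 0.71 without 2 libraries). Ptgs2 followed the CA3 score (r = 0.88, adjusted permutation p = 0.00462; rho = 0.77; r = 0.75 without 2 libraries), and Nr4a3 did so too (r = 0.77, adjusted permutation p = 0.00462; rho = 0.72). Nr4a3 was inversely related to the thalamus and habenula score (r = -0.73, adjusted permutation p = 0.00448; rho = -0.74). So were Ptgs2 (r = -0.67, adjusted permutation p = 0.00462) and Arc (r = -0.65, adjusted permutation p = 0.0066). Nr4a3 and Ptgs2 were also inverse to the score of deep cortical and subiculum neurons (r = -0.76 and -0.72). Nr4a3 with the striatal score (r = -0.58) and Ptgs2 with the dentate (0.78) and microglia (0.63) scores passed too. Without 2 libraries, these r were -0.66, 0.52 and 0.56 in that order. Fos followed the interneuron score (r = 0.59, adjusted permutation p = 0.0149; rho = 0.66; r = 0.55 without 2 libraries), as did Cyr61 (r = 0.57, adjusted permutation p = 0.00462; rho = 0.64; r = 0.51 without 2 libraries). The part of tissue content in the relations between early genes was not tested.

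**Figure D5:**
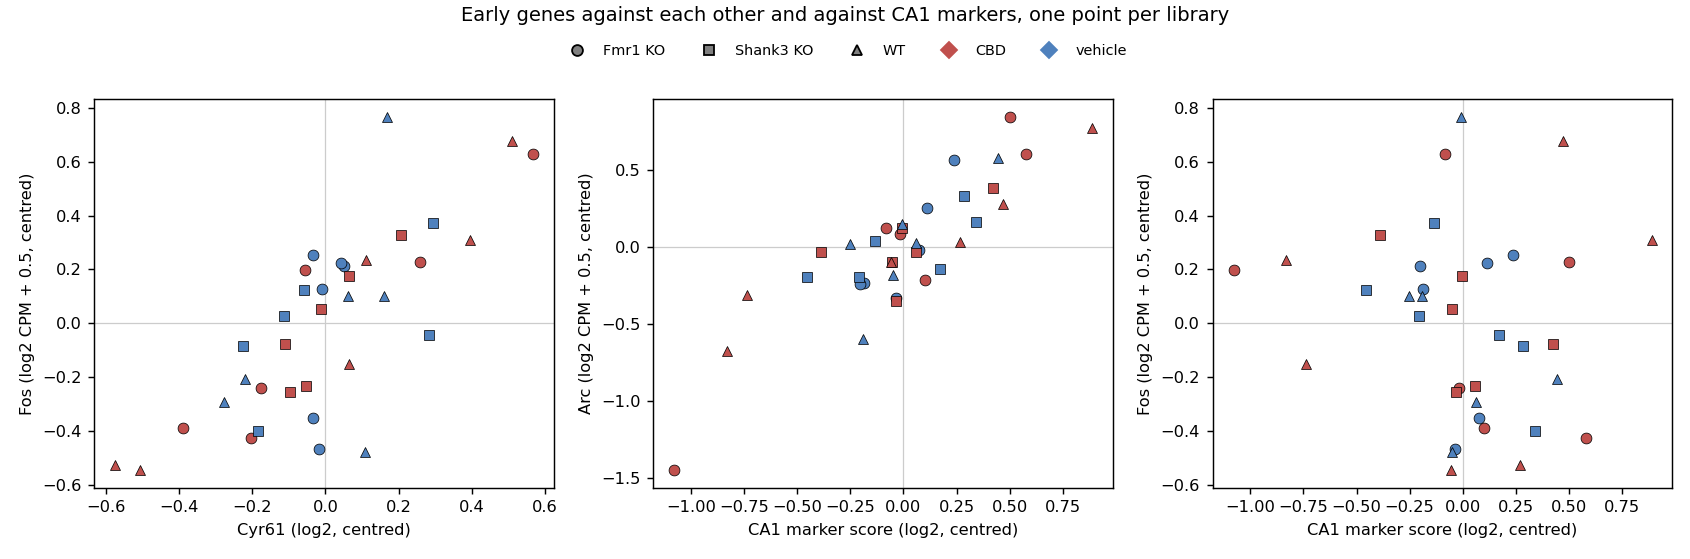
One point per library (n = 36, centred log2 values; circles Fmr1 KO, squares Shank3 KO, triangles WT; red CBD, blue vehicle), showing Fos against Cyr61 on the left (r = 0.77), Arc against the CA1 marker score in the middle (r = 0.86) and Fos against the same score on the right. Arc climbs along the CA1 score, with Fmr1 KO CBD replicate 3 at the lower left, while Fos has r = -0.13 with that score.

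Over the whole table, Cyr61 had the highest r with Fos of all genes tested. The 10 highest genes outside the list were Crh (0.72), Nudt2 (0.71), Nsd2 (0.71), Rad21 (0.71), Tmf1 (0.71), Crnkl1 (0.70), Klf5 (0.70), Eprs (0.70), ENSMUSG00000132567 (0.69) and 1700016P03Rik (0.68), where each value is Pearson's r over 36 libraries, given as a description. Crh, which encodes corticotropin-releasing hormone, is made by interneurons in the hippocampus and was also on the list of late-response genes. With Arc, Nr4a1 had the highest r of all genes tested, and the highest genes outside the list were Pou3f1 (0.89), Rasgrp1 (0.89) and Espn (0.89). Pou3f1 was on the CA1 marker list. Dkk3 (0.87), also among the 10 highest outside the list, was on the CA3 marker list.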

How the data were processed

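Bulk RNA-seq of hippocampal tissue was read from 1 deposited table of counts per gene in 36 libraries. The authors made these counts with STAR 2.7.11b and featureCounts 2.0.8 on GRCm39, per the submitters' processing notes; the annotation release and the strand setting were not stated there. The counts were raw and held no row without a gene. Identifiers with a symbol held 99.0% of counts. Groups came from the library names in the labels.

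Genes were filtered with filterByExpr (21172 kept, with 99.9% of counts), scaled by TMM and tested with edgeR 4.0.16 in R 4.3.3 (glmQLFit and glmQLFTest, sex as covariate, all 36 libraries in 1 fit). CPM values use the TMM-scaled library size. A second fit of genotype, treatment and sex gave the comparisons by sex. Adjusted p-values are Benjamini-Hochberg over all genes, with 0.05 as threshold. DESeq2 1.42.0, limma 3.58.1 voom, other filters, marker covariates, a replicate block and each library left out were alternatives. The scripts were tested on simulated data. Total counts ran from 11655697 to 33228089, and low members such as Inhba had 3 counts in their lowest library, so their precision is poor. Nothing in the labels but separate codes says that libraries are separate animals, so p-values measure the spread between these libraries.

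The members and gene lists were chosen with earlier results of these data known. Named in each comparison were the 4 members with the smallest p, and for each pathway list the 2 genes with the smallest p. The values of 17 members in all groups were described in full. The main fit did not pair libraries by replicate number: correlations of same-numbered libraries ran from -0.393 to 0.457. The CBD libraries closest to the vehicle library of their own number were 3 in Shank3 KO, 2 in Fmr1 KO and 0 in WT mice. Whether some libraries were paired was not stated in the labels.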

Additional observations from a re-analysis of the deposited data

Results flagged for a closer look

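Among the 17 members described in full, 9 of 102 sets of 6 libraries held 1 library apart from the rest, by Dixon's test of the gap to the nearest library. Chance gives about 1 in 20 such sets. Junb in Fmr1 KO CBD replicate 5 was 28.97 CPM, above the nearest library of that group at 23.97 CPM. Egr2 in Fmr1 KO vehicle replicate 3 was 4.206 CPM, above the nearest library of that group at 1.588 CPM. Egr3 in Fmr1 KO vehicle replicate 3 was 124.5 CPM, above the nearest library of that group at 69.41 CPM. Btg2 in Shank3 KO vehicle replicate 2 was 6.805 CPM, above the nearest library of that group at 5.637 CPM. Dusp1 in WT vehicle replicate 3 was 6.314 CPM, below the nearest library of that group at 10.72 CPM. Gadd45b in Shank3 KO vehicle replicate 1 was 3.118 CPM, below the nearest library of that group at 4.046 CPM. Ptgs2 in Fmr1 KO vehicle replicate 3 was 29.64 CPM, above the nearest library of that group at 19.42 CPM. Nptx2 in WT CBD replicate 1 was 31.09 CPM, above the nearest library of that group at 13.93 CPM. Nptx2 in WT vehicle replicate 4 was 21.65 CPM, above the nearest library of that group at 15.41 CPM. Fmr1 KO vehicle replicate 3 was the library apart for Egr2, Egr3 and Ptgs2.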

How the results depend on the processing

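Over 14 comparisons, 383 alternative fits (258 of them leaving out 1 library) called 0 members, so counts without 1 library ran from 0 to 0. The smallest adjusted p was 0.246, under limma voom in Shank3 KO mice. Leaving out 1 library moved 29 of the 56 named fold changes by over 1.5 times. Of 1531 recomputed fold changes of named members, 3 changed sign, all with marker scores as covariates. They were -0.0561 for Dusp4, CBD against vehicle in Shank3 KO, 0.0644 for Dusp4, Shank3 KO against WT under vehicle, and -0.28 for Dusp4, CBD effect in Shank3 KO minus CBD effect in WT. The fit with the replicate block also called 0 members in the 10 comparisons of groups; no such fit was made by sex. The median over the members changed sign in 23 of 383 fits, in 6 comparisons, among them CBD in WT mice (-0.04 with voom, -0.02 with marker covariates). The 4 members that passed with Fos became 9 when centred on the overall mean and 0 in vehicle libraries. The 8 that passed with Arc became 15 when centred on the overall mean, 4 without the 2 farthest libraries, 2 in vehicle libraries, 3 in CBD libraries and 4 without the 3 libraries farthest out on principal components, an alternative chosen after seeing the data, as were all with Arc. The cause was not tested. Depth limits the low members, such as Inhba and Atf3.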

Other observations

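Single libraries held many of the extreme values. Of the 36 early genes, 30 had their highest value in a CBD library, 16 of them in WT CBD mice, and 20 had their lowest value in a CBD library. No such count was made over all genes, and members are correlated between animals. These counts are therefore not read as an effect of CBD. WT CBD replicate 2 was highest for 8 genes, among them Fos, Nr4a2, Cyr61 and Dusp1, and WT CBD replicate 1 for 7, among them Plk2, Btg2 and Nptx2. WT CBD replicate 6 was lowest for 7 genes and Fmr1 KO CBD replicate 3 for 6, among them Arc and Ptgs2. The dentate marker level, a mean log2 value, was 4.72 in WT CBD replicate 2, against a median of 5.88 in its group.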
